A study of Mus musculus with 19 samples.

Results

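Described here are the hotspots of the SPRT PRDM9 allele that carried H3K4me3 on both homologs of a hybrid male but DMC1 mainly on the B6 homolog. They were chosen by 2 values of the B6/SPRT table. On an autosome, with the SPRT allele assigned, more than 75% of the DMC1 reads and 25 to 75% of the H3K4me3 reads had to come from the B6 chromosome. The choice gave 599 hotspots, out of 7456 SPRT-allele autosomal hotspots of that mouse with both fractions (8.03%) and 74327 hotspots in the 5 tables of the series. They are called discordant below. "Bound on both" is shorthand for an H3K4me3 fraction of 25 to 75% and "cut on B6" for a DMC1 fraction over 75%. H3K4me3 stands in for binding, which was not itself measured.

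The study crossed B6 females with males of another species, SPRET/EiJ (SPRT), and varied the PRDM9 allele brought by the mother. The 3 kinds of B6SPRTF1 male used here, B6/SPRT, Hum/SPRT and CAST/SPRT, carried on the B6 side the B6 allele, a humanized allele or the CAST allele of Prdm9, and all carried the SPRT allele on the other side. Whole adult testis gave 1 DMC1 library per genotype, and H3K4me3 ChIP with input from 2 B6/SPRT, 3 Hum/SPRT and 2 CAST/SPRT samples. The Hum/SPRT samples are numbered 1, 1b and 2, so 1b may repeat replicate 1. Each measure has 1 column per table, taken here as pooled over samples, and how samples were combined is not stated. Neither mice behind the samples nor read totals are stated, so every interval below describes a library or such a column, says nothing of how mice vary, and genotypes were not tested against each other.

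PRDM9 is a zinc finger protein of early meiotic cells that binds DNA motifs and trimethylates lysine 4 of histone H3 on the nucleosomes beside them. SPO11 then cuts some of the bound sites, the ends are resected, and the recombinase DMC1 coats the single strands, so that DMC1 SSDS maps breaks and their time to repair together, while H3K4me3 maps the marked chromatin. In a hybrid, SNPs tell which homolog a read came from. A PRDM9 allele has eroded its own motifs in the lineage in which it evolved, so the SPRT allele meets more intact motifs on the B6 chromosome, and sites bound on a single homolog are known for slower repair and poorer pairing.

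The sequence of most of these hotspots cannot be shown, but 10 of the 599 had a RefSeq promoter window (assembly GRCm38.p6, 250 bases before to 50 after a start site) overlapping the 1000 bp in which H3K4me3 was counted, 11 windows in all. On chromosomes with listed start sites these were 10 of 584 (1.71%, 0.933 to 3.12%), against 1.05% (0.843 to 1.32%) of all 7208 SPRT-allele hotspots with both fractions, 0.996% of those bound and cut on B6 and 0.956% of those bound and cut on both, and the intervals overlap. The 4 windows that lay wholly inside that stretch are printed 5′ to 3′, because promoters can carry H3K4me3 on both homologs without PRDM9. Capitals mark CG, the dinucleotide of CpG-rich promoters, which reads the same on both strands and occurred in 94.8% of 31223 autosomal promoter windows, with a median of 7 per window.
5330439K02Rik promoter, chr15:100468318-100468617, minus strand: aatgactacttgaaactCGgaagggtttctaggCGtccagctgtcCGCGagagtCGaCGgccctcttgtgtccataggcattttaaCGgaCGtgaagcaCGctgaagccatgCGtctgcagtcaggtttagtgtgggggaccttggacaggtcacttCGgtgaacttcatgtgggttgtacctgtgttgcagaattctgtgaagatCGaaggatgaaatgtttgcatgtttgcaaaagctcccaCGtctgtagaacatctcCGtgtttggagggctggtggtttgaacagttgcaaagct
Gm36905 promoter, chr16:91995971-91996270, minus strand: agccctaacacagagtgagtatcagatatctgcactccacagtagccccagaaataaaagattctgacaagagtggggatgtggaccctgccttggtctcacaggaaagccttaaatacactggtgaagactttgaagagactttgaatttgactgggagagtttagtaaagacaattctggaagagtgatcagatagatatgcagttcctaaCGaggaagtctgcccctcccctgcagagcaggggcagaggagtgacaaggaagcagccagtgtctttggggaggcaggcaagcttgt
Gm41398 promoter, chr15:99024232-99024531, minus strand: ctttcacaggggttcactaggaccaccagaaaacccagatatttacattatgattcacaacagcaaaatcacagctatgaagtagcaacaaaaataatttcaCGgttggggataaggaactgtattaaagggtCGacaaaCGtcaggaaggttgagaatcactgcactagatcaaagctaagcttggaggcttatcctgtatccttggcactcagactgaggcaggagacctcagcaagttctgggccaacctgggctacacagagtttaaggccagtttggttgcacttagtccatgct
Gm31054 promoter, chr2:91242468-91242767, plus strand: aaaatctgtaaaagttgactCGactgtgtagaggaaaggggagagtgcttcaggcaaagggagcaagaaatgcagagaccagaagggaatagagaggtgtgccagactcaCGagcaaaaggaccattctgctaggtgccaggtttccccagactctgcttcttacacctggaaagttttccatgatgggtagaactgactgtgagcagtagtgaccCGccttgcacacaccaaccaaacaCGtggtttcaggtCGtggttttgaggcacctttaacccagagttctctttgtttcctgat

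The window of the noncoding gene 5330439K02Rik held 14 CG, above the median of all windows, and those of Gm41398, Gm31054 and Gm36905 held 3, 5 and 1. The hotspot at chr15:100468283 lay 84 bp from the listed start site of 5330439K02Rik and within Letmd1. There 94.4% of DMC1 reads but 56.3% of 2731 H3K4me3 reads came from B6 in B6/SPRT. In Hum/SPRT the fractions were 90.7% and 58.7%. The promoter window of Letmd1 itself, only partly inside the counted stretch, held 48 CG. At the Gm36905 hotspot (chr16:91996127), the only one whose center fell in a promoter window, DMC1 was 88.3% and H3K4me3 66.6% of 1058 reads from B6, and in Hum/SPRT 93.7% and 66.4%. The Gm41398 hotspot (chr15:99024204) had 93.6% and 69.3% in B6/SPRT and 78.7% and 68.0% in Hum/SPRT. The Gm31054 hotspot (chr2:91242448) had 76.7% and 65.8% in B6/SPRT, 71.8% and 61.3% in Hum/SPRT, and 81.2% and 74.8% in CAST/SPRT. The class was kept in Hum/SPRT at 3 of these 4, and the fourth fell under the DMC1 limit there. Over the 563 discordant hotspots found there with the SPRT allele and both fractions the share was 63.9%.

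**Figure D1:**
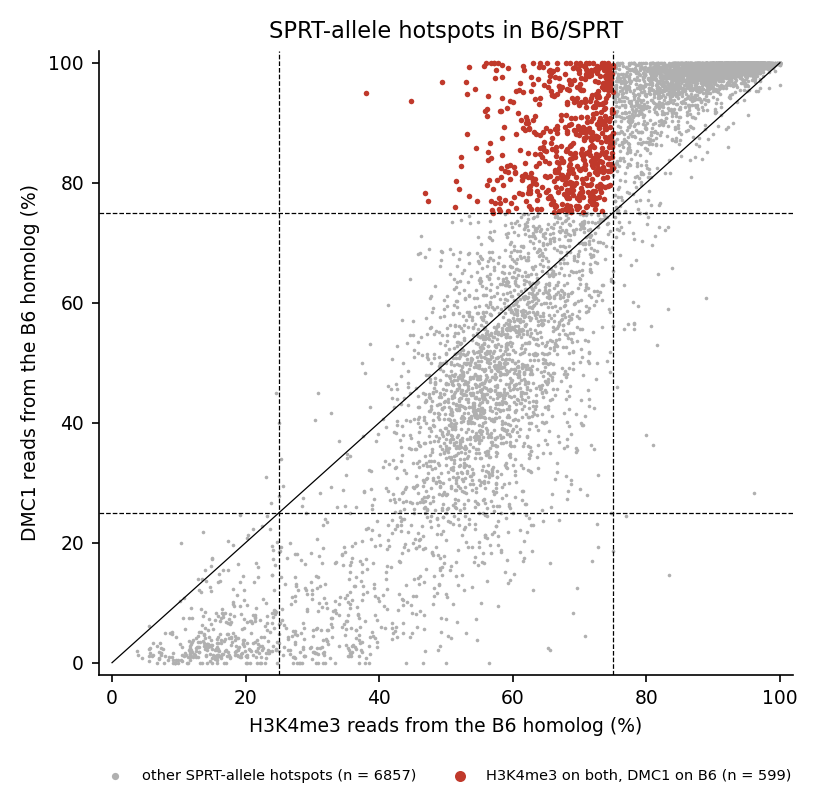
Fraction of reads from the B6 homolog at 7456 SPRT-allele autosomal hotspots of B6/SPRT, H3K4me3 on the x axis and DMC1 on the y axis, both in percent. Dashed lines mark 25 and 75%, the solid line equal fractions, and red points the 599 discordant hotspots, which crowd toward the 75% limit of H3K4me3.

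The discordant hotspots leaned toward B6 by H3K4me3 as well. Their median H3K4me3 fraction was 69.4% from B6, with a lowest value of 38.1%, although the limits allowed any value from 25%. In 446 of them (74.5%) the fraction was 65 to 75%, in 68 (11.4%) it was 40 to 60%, and in 5 it was under 50%. The DMC1 fraction had a median of 86.8%, was over 90% at 222 hotspots and reached 100% at 19. The number of DMC1 reads behind a fraction is unknown. Of the 6389 autosomal hotspots of B6/SPRT cut on B6, of any allele and with both fractions, 0 had an H3K4me3 fraction under 25%.

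H3K4me3 fractions rested on a median of 404 SNP-carrying reads per discordant hotspot, from 14 to 2902, and 552 hotspots had 100 or more. The 95% Wilson interval had a median half-width of 4.50 percentage points. It lay wholly between 25 and 75% at 333 hotspots (55.6%). The DMC1 fraction was above the upper bound of the H3K4me3 interval at 588 hotspots (98.2%). These intervals cover counting error only and are too narrow where a fragment was counted at more than 1 SNP, since SNP-carrying reads outnumbered the ChIP coverage count by a median of 1.79. The difference between the DMC1 and the H3K4me3 fraction had a median of 18.5 points, with quartiles of 12.1 and 25 and a range of 2.03 to 56.8. On the odds scale, among hotspots under 100%, the B6 share was a median of 3.0 times as large by DMC1 as by H3K4me3. Both fractions chose the hotspots, so these are descriptions and not tests.

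The hotspots nearest the limits show how the boundary cuts through a continuum. Just inside the DMC1 limit, 3 hotspots had 75.02%, 75.15% and 75.17% of DMC1 reads from B6 with H3K4me3 fractions of 57.0%, 68.7% and 66.1%. Just outside, 3 had exactly 75% of DMC1 reads with H3K4me3 fractions of 63.8%, 66% and 68.3%. On the upper H3K4me3 limit, 3 discordant hotspots had exactly 75%, with DMC1 fractions of 91.8%, 99.3% and 82.4%. Beyond it, 3 hotspots had H3K4me3 fractions of 75.1%, 75.1% and 75.1% and DMC1 fractions of 94.3%, 81.3% and 93.6%, and in all 367 hotspots cut on B6 had an H3K4me3 fraction between 75 and 80%. At the low end the discordant hotspots stopped at 38.1%, 44.8% and 46.9%, far from the limit of 25%.

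Set in order of the H3K4me3 fraction, the share of SPRT-allele hotspots cut on B6 rose steeply over a narrow range. In B6/SPRT it was 8.05% (50 of 621 hotspots, Wilson interval 6.16 to 10.5%) at an H3K4me3 fraction of 55 to 60%. It was 16.2% at 60 to 65%, 38.5% at 65 to 70% and 66.6% (275 of 413, 61.9 to 71.0%) at 70 to 75%. The same bands in Hum/SPRT, whose libraries took no part in the choice, gave 4.76%, 13.4%, 33.7% and 69.3%, and in CAST/SPRT 7.21%, 13.4%, 48.2% and 59.1%. The median DMC1 fraction equalled or passed the H3K4me3 fraction only near the top of this range: it was 57.9% at an H3K4me3 fraction of 60 to 65% in B6/SPRT, and 83.1% at 70 to 75%. At 50 to 55% it was 43.0%. Across the middle of the range DMC1 was thus shifted toward SPRT relative to H3K4me3, and among the hotspots bound and cut on both the medians were 49.1% for DMC1 and 57.6% for H3K4me3.

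**Figure D2:**
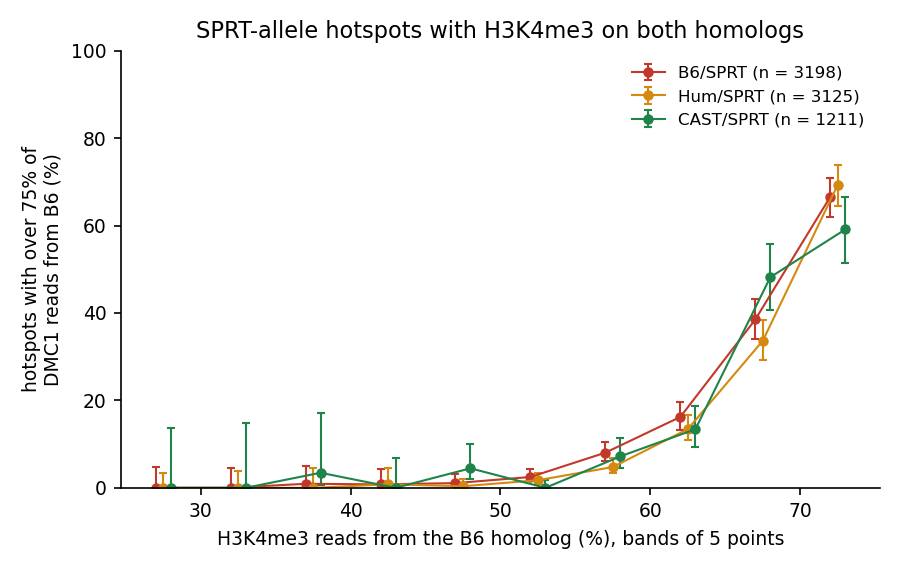
Percent of SPRT-allele autosomal hotspots with over 75% of DMC1 reads from B6, by band of the H3K4me3 B6 fraction, in 3198 hotspots of B6/SPRT, 3125 of Hum/SPRT and 1211 of CAST/SPRT bound on both homologs. Bars are 95% Wilson intervals, and the 3 lines rise together above a fraction of 60%.

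By median the discordant hotspots were the highest of 3 classes in H3K4me3 and between the other classes in DMC1 signal. Their median DMC1 signal in B6/SPRT was 108 (quartiles 52.5 and 205, range 8.13 to 657). It was 139 at the 3851 hotspots bound and cut on B6 and 89.4 at the 2152 bound and cut on both. Their median H3K4me3 enrichment, a ratio proportional to ChIP over input coverage, was 10.4 (order-statistic 95% interval 9.60 to 11.1), against 8.27 (8.15 to 8.46) and 9.37 (9.09 to 9.57) in those 2 classes. Enrichment was above that of hotspots bound and cut on B6 on 17 of 19 autosomes, and DMC1 signal was below it on 15 of 19. Against hotspots bound and cut on both the order held on fewer autosomes, with enrichment above on 14 of 19 and DMC1 signal above on 12 of 19. Together they held 7.85% of the DMC1 signal and 9.52% of the H3K4me3 enrichment of the 7456 hotspots.

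DMC1 signal per H3K4me3 enrichment, a measure of break signal per unit of mark, had a median of 12.3 (interval 11.4 to 13.1) at the discordant hotspots. It was 16.4 (16.0 to 17.0) at those bound and cut on B6 and 10.5 (10.1 to 10.8) at those bound and cut on both. The ratio was below that of hotspots bound and cut on B6 on 19 of 19 autosomes and above that of hotspots bound and cut on both on 15 of 19. At an H3K4me3 fraction of 60 to 65% it was below the latter, 9.33 against 10.3. Splitting both signals by their B6 fractions gave a median of 15.4 (14.3 to 16.8) on the B6 homolog and 4.26 (3.93 to 4.85) on the SPRT homolog. Hotspots bound and cut on B6 had the same order, with 18.05 on B6 and 2.06 on SPRT. At hotspots bound and cut on both the order was the opposite, with 8.79 (8.41 to 9.30) on B6 and 12.1 (11.7 to 12.6) on SPRT. The split follows from how the classes were chosen and is given as a description.

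Discordance was most frequent in the strongest quartile of the hotspots bound on both. By quartile of H3K4me3 enrichment, from the weakest, discordant hotspots made up 16.5%, 14.1%, 19.4% and 24.9% (22.0 to 28.0%) of the 3198 SPRT-allele hotspots bound on both. By quartile of DMC1 signal the shares were 15.3%, 16.5%, 17.3% and 25.9% (23.0 to 29.0%). The share cut on SPRT fell across the same quartiles from 24.4% to 5.0%. Discordant hotspots were 8.03% of the SPRT-allele hotspots with both fractions. Over the 19 autosomes the lowest share was 4.49% on chromosome 13 (16 of 356) and the highest 12.9% on chromosome 15 (38 of 295). Whether autosomes differ was not tested.

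The question that the other mice can answer is whether the discordance repeats at the same position. Of the 599 hotspots, 597 had a hotspot center within 500 bp in Hum/SPRT, where 99.7% of all 7456 did, and 345 had one in CAST/SPRT, where 58.7% of all did. The authors assigned alleles by comparison with mice of known alleles. If Hum/SPRT or CAST/SPRT were among them, presence at the same position is partly fixed by the SPRT label. The assigned allele was again SPRT at 591 and at 339, and was not assigned at 6 and at 6. Both fractions were listed there for 563 and 314. The 254 not found in CAST/SPRT had a median DMC1 signal of 48.0 in B6/SPRT, against 194 for the 345 found, so the repeats in CAST/SPRT concern the stronger hotspots.

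In Hum/SPRT, 360 of the 563 hotspots were discordant again (63.9%, Wilson interval 59.9 to 67.8%). Over all SPRT-allele hotspots of B6/SPRT matched in the same way the share was 6.96% (484 of 6957), and over those bound and cut on both in B6/SPRT it was 1.92% (36 of 1874, 1.39 to 2.65%). With a DMC1 limit of 90% in both tables the share fell to 35.0% (75 of 214). With the limit raised to 90% in Hum/SPRT only, 90 of the 563 (16.0%) were discordant there. So were 1.70% of all (118 of 6957) and 0 of the 1874 bound and cut on both in B6/SPRT. At the 75% limit, besides the 360, 114 (20.2%) were bound and cut on B6 there. Another 79 (14.0%) were bound and cut on both, and 10 (1.78%) bound on B6 and cut on both. None was cut on SPRT, which with 563 hotspots allows a share of up to 0.678% by the Wilson bound. DMC1 was thus on the same side of its limit at 474 hotspots (84.2%) and H3K4me3 at 439 (78.0%). Of all 6957 matched hotspots 61.3% were cut on B6 and 40.7% bound on both there. Of those bound and cut on B6 in B6/SPRT 98.96% were again cut on B6, and of those bound and cut on both 98.5% were again bound on both, above the shares of the discordant hotspots.

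In CAST/SPRT, 130 of 314 were discordant again (41.4%, 36.1 to 46.9%), where 5.25% of all matched SPRT-allele hotspots were (207 of 3942) and 6.52% of those bound and cut on both in B6/SPRT (55 of 843, 5.05 to 8.4%). With the 90% DMC1 limit in both tables the share of discordant hotspots found again as such was 27.7% (26 of 94). With the limit raised to 90% in CAST/SPRT only, 46 of the 314 (14.65%) were discordant there. So were 1.47% of all (58 of 3942) and 0.237% of those bound and cut on both in B6/SPRT (2 of 843). At the 75% limit most of those not discordant again, 161 of the 314 (51.3%), were bound and cut on B6. Another 20 (6.37%) were bound and cut on both, and 3 were bound on B6 and cut on both. DMC1 stayed above 75% from B6 at 291 (92.7%, 89.2 to 95.1%), H3K4me3 stayed between 25 and 75% at 150 (47.8%). Of all 3942 matched hotspots 73.5% were cut on B6 and 27.1% bound on both there. Those bound and cut on B6 were again cut on B6 at 99.4%, and those bound and cut on both were again bound on both at 95.97%. On each of the 19 autosomes, in both mice, the share discordant again was higher for discordant hotspots than for those bound and cut on both. The mice share the SPRT allele, the B6 and SPRT chromosomes and the SNPs at which reads were placed on a homolog, and their libraries are separate. Whether the placing of reads at a position adds to the repetition was not tested.

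**Figure D3:**
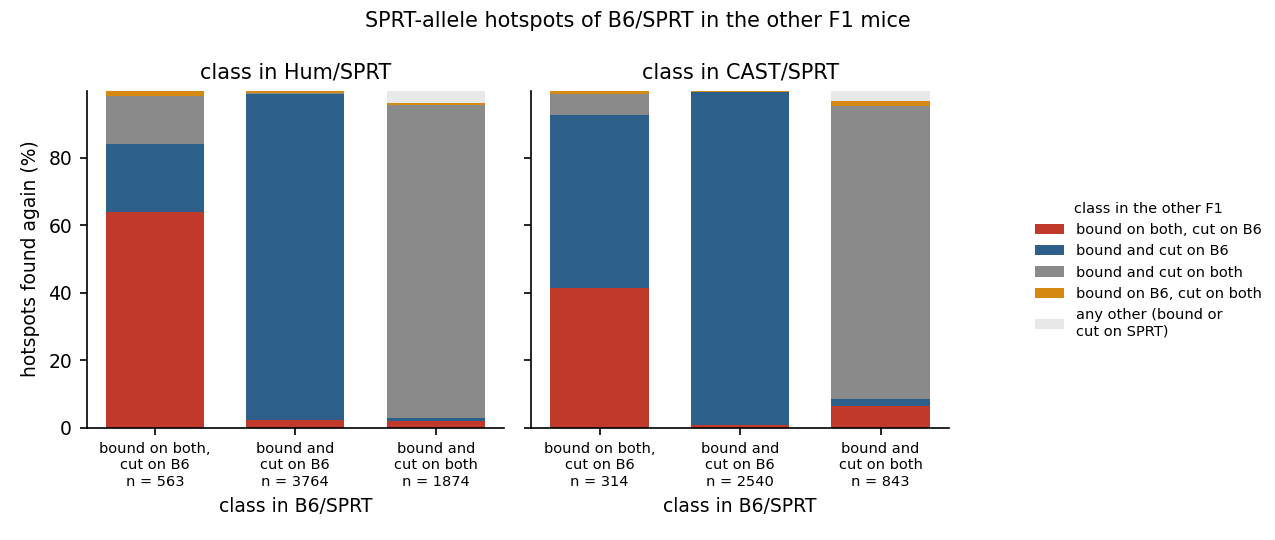
Class in Hum/SPRT (left) and CAST/SPRT (right) of SPRT-allele hotspots found there with both fractions, as percent of each B6/SPRT class, with n under each bar. Red is bound on both and cut on B6, which takes 63.9% and 41.4% of the discordant hotspots and 1.92% and 6.52% of those bound and cut on both.

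The 304 discordant hotspots with both fractions in all 3 mice allow the fractions to be followed at the same positions. Of these, 110 (36.2%, 31.0 to 41.7%) were discordant in all 3, 231 (75.99%) in at least 1 other mouse, and 262 (86.2%) were cut on B6 in all 3. Of all 3806 SPRT-allele hotspots of B6/SPRT with both fractions in the 3 mice, 3.15% were discordant in both other mice, 8.93% in at least 1 of them, and 72.3% were cut on B6 in both. For those bound and cut on B6 these shares were 0.201%, 1.85% and 99.2%, and for those bound and cut on both 0.635%, 7.497% and 2.16%. Of the 304, 8 (2.63%) were cut on both in both other mice. Hum/SPRT was discordant at 216 of these positions (71.1%) and CAST/SPRT at 125 (41.1%). In B6/SPRT, Hum/SPRT and CAST/SPRT, in this order, the median DMC1 fraction was 85.4%, 85.7% and 89.4%. The median H3K4me3 fraction was 69.9%, 71.1% and 75.6%, and was above 75% at 62 hotspots (20.4%) in Hum/SPRT and at 159 (52.3%) in CAST/SPRT. It was higher than in B6/SPRT at 204 of 304 hotspots in Hum/SPRT and at 252 in CAST/SPRT, which the choice partly fixes, since the rule held the B6/SPRT fraction at or under 75% and most values lay near that limit. Over all positions found in CAST/SPRT it was higher at 261 of 314 discordant positions, at 2281 of 2540 bound and cut on B6 and at 423 of 843 bound and cut on both, and in Hum/SPRT at 369 of 563, 1663 of 3764 and 968 of 1874. With evenly split background of 1/(1 + enrichment) taken off both fractions these counts were 253, 1413 and 402 in CAST/SPRT and 405, 2135 and 1036 in Hum/SPRT. They changed most at positions bound and cut on B6. Corrected fractions were capped at 100%, the upper quartile of that class in B6/SPRT, and a position at the cap there cannot be higher in another mouse. Of the hotspots not discordant in CAST/SPRT, 156 were bound and cut on B6 there, that is, past the H3K4me3 limit with DMC1 still on B6, and 20 were bound and cut on both.

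H3K4me3 reads from background would pull a fraction toward the middle, and enrichment differed between the tables, with medians at the same 304 positions of 12.8, 7.80 and 34.7 in the same order of mice, on scales that differ. With background taken as 1/(1 + enrichment) of the reads and split evenly, the 3 medians of the H3K4me3 fraction became 72.0%, 73.9% and 76.4%. Under that correction 441 hotspots met the rule in B6/SPRT, and those found again with both fractions were discordant at 213 of 415 (51.3%) in Hum/SPRT and 111 of 247 (44.9%) in CAST/SPRT. Hotspots bound and cut on both under the same correction were discordant at 1.55% and 6.03%. The enrichment column itself ran in proportion to ChIP over input coverage with little offset (a median of 0.875, 0.461 and 4.91 times that ratio in the 3 tables, and a fitted intercept of 0.0151, 0.0578 and 0.122). With a background share of 1/enrichment for enrichment above 1, tried after seeing the data, the medians were 72.1%, 74.4% and 76.5%, 414 hotspots met the rule, and 198 of 387 (51.2%) and 107 of 240 (44.6%) were discordant again, against 1.35% and 5.95% of those bound and cut on both. The level of ChIP background on this scale is not stated.

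The repeat share depended on where in the H3K4me3 range a hotspot lay. For an H3K4me3 fraction up to 60% in B6/SPRT, 46 of 67 hotspots (68.7%, 56.8 to 78.5%) were discordant again in Hum/SPRT and 20 of 30 (66.7%, 48.8 to 80.8%) in CAST/SPRT. For 60 to 65% the shares were 80.5% and 67.7%, for 65 to 70% they were 69.6% and 53.5%, and for 70 to 75% they were 54.3% and 23.4%. Hotspots bound and cut on both in the same bands were discordant in Hum/SPRT at 0.764%, 2.17%, 4.50% and 8.49%. In CAST/SPRT those shares were 2.84%, 7.14%, 22.3% and 11.4%. In its band of 70 to 75% the intervals overlapped. They were 17.4 to 30.7% for discordant hotspots and 4.95 to 24.0% for those bound and cut on both (5 of 44). For the most evenly marked hotspots, up to 60%, the median H3K4me3 fraction was 57.0% in B6/SPRT and 60.4% in Hum/SPRT, while the median DMC1 fraction was 84.2% and 81.5%. Hotspots bound and cut on both in that band had medians there of 54.4% for H3K4me3 and 43.3% for DMC1.

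Those that did not repeat in Hum/SPRT had sat closer to the limit they then crossed. Hotspots discordant again in Hum/SPRT had a median H3K4me3 fraction of 68.4% and DMC1 fraction of 87.5% in B6/SPRT, and a median DMC1 signal of 139. The 114 that became bound and cut on B6 had 73.2%, 92.8% and 104. The 79 that became bound and cut on both had 67.6%, 78.9% and a signal of 55.7, with a median of 249 H3K4me3 reads against 487 for those that repeated. From the other side, 503 SPRT-allele hotspots were discordant in Hum/SPRT and 484 of them had both fractions at a matched hotspot of B6/SPRT, of which the same 360 were discordant (74.4%). In CAST/SPRT 224 were discordant, 207 matched, and 130 of these were discordant in B6/SPRT (62.8%).

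Across discordant hotspots the size of the discordance was shared in part between mice. Spearman's rank correlation of the DMC1 minus H3K4me3 difference was 0.571 between B6/SPRT and Hum/SPRT (563 hotspots) and 0.460 between B6/SPRT and CAST/SPRT (314). For the DMC1 fraction it was 0.695 and 0.743, for the H3K4me3 fraction 0.627 and 0.585, and for DMC1 signal per H3K4me3 0.878 and 0.814. These correlations are across hotspots chosen on B6/SPRT, which narrows their range, and hotspots share SNPs and base composition between mice. The difference was above 0 at 522 of 563 hotspots in Hum/SPRT (92.7%), with a median of 14.0 points, and at 299 of 314 in CAST/SPRT (95.2%), with a median of 13.4. Positions bound and cut on B6 were above 0 at 91.4% of 3764 in Hum/SPRT, with a median of 5.04 points, and at 71.1% of 2540 in CAST/SPRT, with a median of 1.52. At hotspots bound and cut on both the medians were -9.44 and -3.50 points.

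By median over a whole class, DMC1 signal per H3K4me3 kept its order between the classes in the mice whose fractions were not used for the choice. At the discordant positions it had a median of 10.9 (10.01 to 12.1) in Hum/SPRT, between 14.4 (14.0 to 14.9) where B6/SPRT was bound and cut on B6 and 9.47 (9.0 to 9.88) where it was bound and cut on both. In CAST/SPRT the medians were 0.990 (0.882 to 1.10), 1.39 (1.35 to 1.43) and 0.896 (0.812 to 0.957), so there the interval of the discordant positions overlapped that of the last class. The ratio was lower than at positions bound and cut on B6 on 17 of 19 autosomes in Hum/SPRT and 19 of 19 in CAST/SPRT, and higher than at positions bound and cut on both on 15 of 19 in each. Within bands of the B6/SPRT H3K4me3 fraction the order against positions bound and cut on both was not always kept. In Hum/SPRT the ratio was 8.23 against 8.80 at 60 to 65%, and 9.58 against 9.52 up to 60%. In CAST/SPRT it was 0.929 against 0.962 at 65 to 70%. In the other bands the discordant positions were higher. By homolog, the median at discordant positions was 13.3 on B6 and 5.37 on SPRT in Hum/SPRT, and 1.20 and 0.433 in CAST/SPRT. Positions bound and cut on B6 had the same order, with 15.5 and 5.22 in Hum/SPRT and 1.43 and 0.639 in CAST/SPRT. Those bound and cut on both had 7.60 and 11.5, and 0.789 and 0.947. Ratios are not comparable between mice, because the scale of enrichment differs between the tables.

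**Figure D4:**
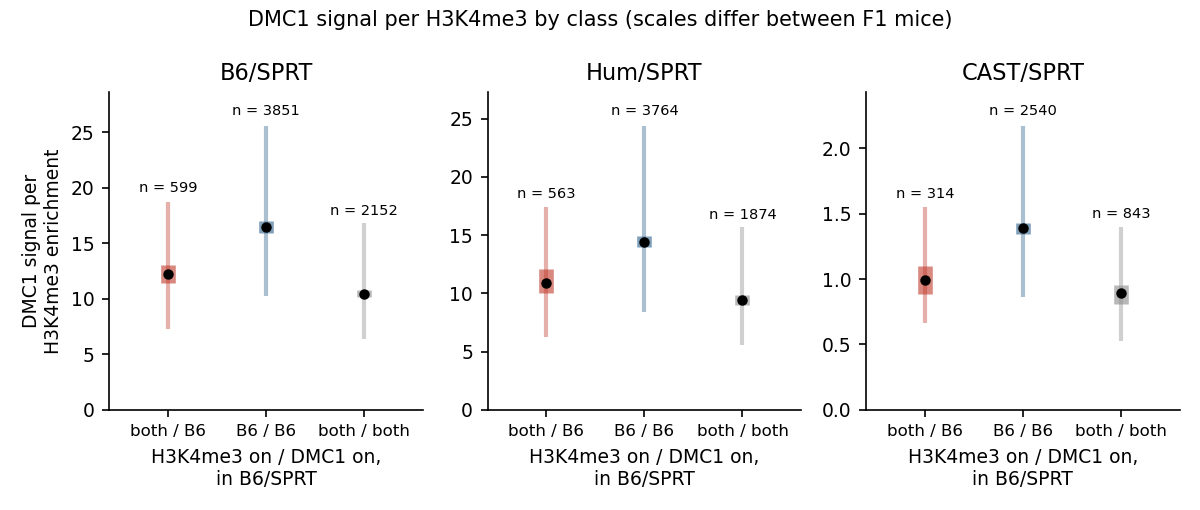
DMC1 signal per H3K4me3 enrichment in each of the 3 mice, by the class a hotspot had in B6/SPRT (H3K4me3 on / DMC1 on). Points are medians, wide bars their 95% order-statistic intervals and thin lines the quartiles. In every panel the discordant positions (both / B6) lie below those bound and cut on B6.

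Genes are named only to place a hotspot, and 5 of the 10 strongest discordant hotspots lay within one. The largest DMC1 signal, 657 in B6/SPRT, was at chr3:33862747, 18.4 kb from Ccdc39, which encodes a protein needed to assemble motile cilia. There 88.1% of DMC1 reads but 53.1% of 467 H3K4me3 reads (48.6 to 57.6%) came from B6. In Hum/SPRT the fractions were 88.7% and 54.6%, and in CAST/SPRT 91.2% and 49.8%. This hotspot was evenly marked and cut mainly on B6 in all 3 mice.

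At chr3:49701899, 41.4 kb from the protocadherin gene Pcdh18, DMC1 was 84.2%, 78.9% and 89.6% from B6 and H3K4me3 56.7%, 63.4% and 65.9%, in B6/SPRT, Hum/SPRT and CAST/SPRT. Within Pcdh15, a protocadherin of the hair cell tip link (chr10:73467959), DMC1 was 98.6%, 97.9% and 97.7% and H3K4me3 65.4%, 68.0% and 70.9%. DMC1 there was almost wholly on B6 in each mouse while much of the mark was on SPRT. Within Myh11, the smooth muscle myosin heavy chain gene (chr16:14262461), DMC1 was 82.3%, 91.4% and 94.2% and H3K4me3 68.8%, 68.5% and 74.0%. Within the lncRNA gene Gm29835 (chr12:25985550) DMC1 was 81.7%, 81.2% and 83.1% and H3K4me3 66.5%, 68.7% and 68.9%. In these 2 hotspots the mark stayed under the limit in all 3 mice, narrowly so at Myh11 in CAST/SPRT.

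The lncRNA gene Gm34567 (chr17:14275147) held a hotspot with DMC1 fractions of 78.4%, 82.0% and 83.9% and H3K4me3 fractions of 66.7%, 67.7% and 73.7%. B3galt1, a galactosyltransferase gene, held one at chr2:67787667 with 77.7%, 81.2% and 84.4% against 70.5%, 73.4% and 69.1%. Gulp1, which encodes an adaptor for engulfment of dying cells, held one at chr1:44647155 with 84.6%, 90.7% and 86.9% against 73.0%, 69.3% and 72.0%. These 3 were discordant in every mouse by smaller differences than the hotspots at Ccdc39 and Pcdh15. Bnip3l, a mitophagy receptor gene, held one at chr14:66989785 with 84.5%, 89.5% and 84.1% against 66.4%, 69.5% and 67.1%. Vav3 held one at chr3:109492050 with 78.7%, 80.5% and 81.4% against 63.7%, 70.4% and 68.3%. All 10 of the strongest hotspots discordant in every mouse had been selected for that pattern, so their repetition is a description.

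**Figure D5:**
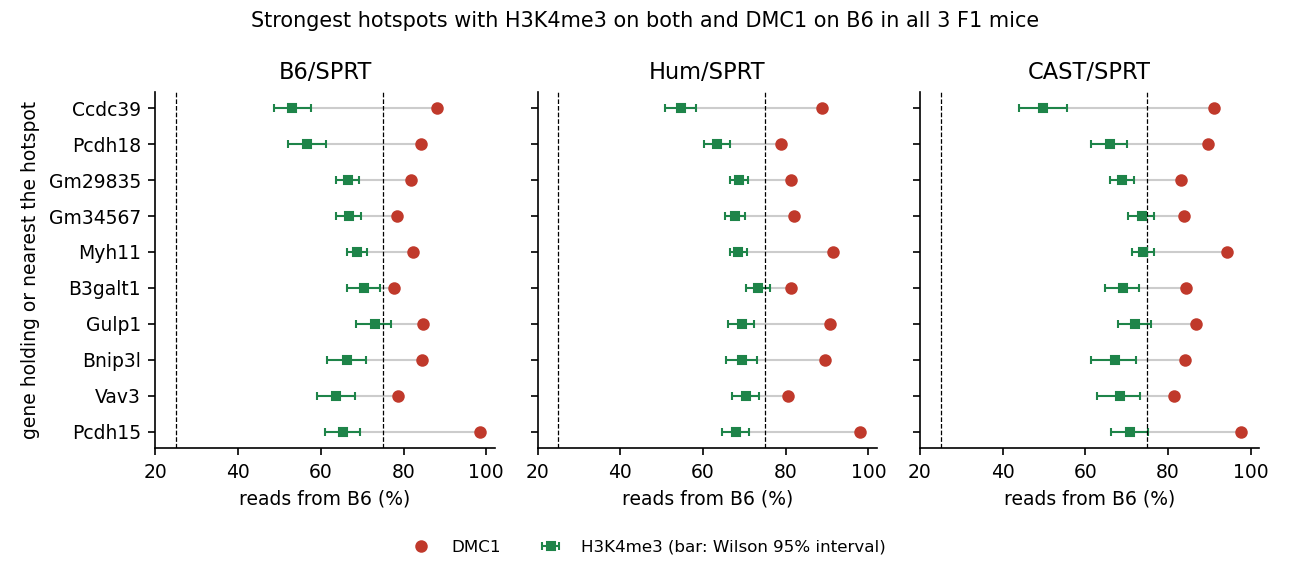
The 10 hotspots with the largest DMC1 signal in B6/SPRT among the 110 discordant in all 3 mice, labeled by the gene holding or nearest them. Red points are DMC1 and green squares H3K4me3 reads from B6 in percent, with 95% Wilson intervals on H3K4me3 and dashed lines at 25 and 75%. DMC1 lies to the right of H3K4me3 in every row and mouse.

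Other strong discordant hotspots passed the H3K4me3 limit in the other mice. Within Arhgef33 (chr17:80390880, signal 554), DMC1 was 99.0%, 98.9% and 98.3% and H3K4me3 74.5%, 78.2% and 82.6%. The hotspot 9.52 kb from Lrrc31 (chr3:30709367) had DMC1 of 93.4%, 89.7% and 98.3% and H3K4me3 of 69.2%, 78.4% and 82.0%. At the hotspot 60.4 kb from the pseudogene Gm9367 (chr7:55401664) DMC1 was 82.2%, 82.9% and 86.3% and H3K4me3 73.6%, 80.2% and 81.8%. All 3 were cut on B6 throughout and were bound and cut on B6 by their H3K4me3 fraction in Hum/SPRT and CAST/SPRT. The hotspot 67.0 kb from the pseudogene Gm18870 (chr16:63073823) had DMC1 of 94.2%, 91.6% and 97.6% and H3K4me3 of 68.9%, 74.9% and 86.0%, and so left the class in CAST/SPRT only. Orm3, a gene of the orosomucoid plasma proteins, held one at chr4:63359250 with DMC1 of 93.5% and H3K4me3 of 70.9% in B6/SPRT and 97.7% and 80.9% in CAST/SPRT, and was without both fractions or the SPRT allele in Hum/SPRT.

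The widest differences were at hotspots of mostly lower DMC1 signal. Within Tmem53 (chr4:117258852, signal 91.5), 94.9% of DMC1 reads but 38.1% of 1050 H3K4me3 reads (35.2 to 41.1%) came from B6, so more of the mark was on SPRT and more of the DMC1 on B6. In Hum/SPRT these were 94.9% and 49.2%. At chr5:107095050, 0.581 kb from the lncRNA gene Gm42146, DMC1 was 93.6% and H3K4me3 44.8% in B6/SPRT, and 76.6% and 55.1% in Hum/SPRT. Within Sspn, the sarcospan gene (chr6:145945565), they were 96.8% and 49.5%, then 89.4% and 50.1%. Within the lncRNA gene A330033J07Rik (chr13:48083072) they were 100% and 56.0%, then 93.1% and 55.2%. These 4 had no SPRT-allele hotspot with both fractions in CAST/SPRT. The exception in strength was Cfap36, a gene of a cilia- and flagella-associated protein, with a hotspot at chr11:29245962 of signal 320. DMC1 there was 99.3%, 98.2% and 98.9% from B6 and H3K4me3 53.4% (51.1 to 55.8%), 56.0% and 55.8% in the 3 mice. Its center lay 1.31 kb from the nearest listed start site.

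At 8 hotspots DMC1 fell to 25 to 75% in both other mice, and the strongest of them were near the limit at the start. The hotspot 20.1 kb from the pseudogene Gm10925 (chr1:24634713) had DMC1 of 77.9%, 67.4% and 59.3% with H3K4me3 of 69.0%, 69.2% and 70.1%. Within Asap3, an Arf GTPase-activating gene (chr4:136238373), DMC1 was 78.9%, 73.3% and 71.7% and H3K4me3 57.1%, 60.6% and 64.6%. Near Gm34644 (chr11:42898460), and within the BMP receptor gene Bmpr1b (chr3:141903242) and Nploc4 (chr11:120396599), a gene for a cofactor of p97, DMC1 started at 76.1%, 80.7% and 75.5%. It was 72.1%, 71.6% and 66.7% in Hum/SPRT and 70.6%, 74.4% and 71.4% in CAST/SPRT.

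By position, 349 of the 599 lay within a gene (58.3%, 54.3 to 62.1%), as did 58.7% of hotspots bound and cut on B6 and 67.1% (65.1 to 69.1%) of those bound and cut on both, and 61.4% of all 7456. For protein-coding genes the shares were 47.9%, 50.8%, 60.8% and, over all, 53.9%. A start site listed in RefSeq lay within 1 kb of 20 of 584 discordant hotspots with start sites on their chromosome (3.42%, 2.23 to 5.23%), against 1.53% (1.19 to 1.98%) and 1.43% (1.01 to 2.04%) in the other classes and 1.66% (1.39 to 1.99%) over all. Those 20 had a median H3K4me3 fraction of 66.3%, a DMC1 fraction of 93.6% and a DMC1 signal per H3K4me3 of 9.69, and the other 564 had 69.4%, 86.8% and 12.3. The list of start sites is not complete, and the part of promoter H3K4me3 in the fractions was not tested.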

How the data were processed

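DMC1 SSDS and H3K4me3 ChIP-seq of adult testis were used from 3 genotypes of B6SPRTF1. Per the labels, reads were aligned with BWA and the build is mm10. The authors called hotspots without a prior list, took each hotspot's PRDM9 allele from mice with known alleles, and placed reads on a homolog at SNPs homozygous in SPRET/EiJ. The authors deposited 1 table per genotype, whose DMC1 signal is their caller's value and whose fraction of DMC1 reads from B6 comes without read numbers. For H3K4me3 they deposited counts of ChIP and input coverage in 1000 bp windows, a count of SNP-carrying reads, a fraction from B6 and a ratio of enrichment, close to a constant times ChIP over input, whose formula is not given in the sources used here. Each H3K4me3 measure is 1 column, taken as pooled over samples, and 13 columns of p-values and a sharing mark were not used.

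With scipy 1.17.1, numpy 2.4.6 and pandas 2.3.3 under Python 3.11.15 (plots with matplotlib 3.10.9), autosomal hotspots were classed at 25 and 75% (H3K4me3 limits included, DMC1 strictly above 75%) and matched between tables by the nearest center within 500 bp. Shares have 95% Wilson intervals and medians exact order-statistic intervals, and neither reflects variation between mice. Gene spans, start sites and promoter sequences are those of RefSeq on GRCm38.p6. A gene is the one holding the center or the nearest. Hotspots named are the 10 strongest by DMC1 signal, the 10 strongest discordant in all 3 mice, the 5 with the largest difference and at least 100 reads, those nearest the limits, and the 5 strongest cut on both in both other mice. Promoter windows were added after the values were seen. The members, classes and rules were chosen with earlier results of these data known. The computations were tested on simulated data. The 45 alternatives covered the limits, read minimums, matching distance, allele, weighting and a background correction. The STUS crosses served only to count hotspots at the same positions.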

Additional observations from a re-analysis of the deposited data

How the results depend on the processing

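A count was taken as moved past 1.5 times, a share of hotspots or a median outside its own interval, and the share of DMC1 signal past its SD over autosomes (2.52 points). By these rules 15 of 45 alternatives moved a result, 4 of the 45 having been added after seeing the data. The number of discordant hotspots in B6/SPRT, 599, depended on its limits. It was 327 with H3K4me3 limits of 30 to 70%, 68 with 40 to 60%, 222 with over 90% of DMC1 reads from B6, 333 where the whole Wilson interval had to lie within the limits and 312 with DMC1 signal above the median of SPRT hotspots, and it was 586, 450, 441 and 414 with at least 50 reads, at least 200 reads and the background corrections of 1/(1 + enrichment) and 1/enrichment. Their share of the DMC1 signal, 7.85%, was 4.0%, 0.775%, 2.33% and 4.60% under the first 4 of these. The share discordant again in Hum/SPRT, 63.9%, was 51.8% with limits of 30 to 70% and 35.0% with over 90% of DMC1 reads from B6, both applied to both mice, 72.5% weighted by DMC1 signal, and 51.3% and 51.2% with the background corrections. In CAST/SPRT, 41.4%, it was 27.7% with over 90% of DMC1 reads and otherwise 38.1 to 44.9%. No alternative moved a median of DMC1 signal per H3K4me3 beyond its interval. A narrower class keeps fewer hotspots by construction. No paired analysis was possible because the tables hold 1 column per measure and genotype, so neither the replicate numbers of the labels nor leaving out a replicate could be used. The unknown number of DMC1 reads limits how finely a DMC1 fraction can be read at weak hotspots.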

Other observations

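The mirror image of the discordant hotspots was also present. Among SPRT-allele hotspots of B6/SPRT, 447 were bound on both and cut on SPRT (6.0% of 7456), with a median H3K4me3 fraction of 39.4% from B6, a DMC1 fraction of 11.9%, a DMC1 signal of 54.1 and an H3K4me3 enrichment of 4.90, against 108 and 10.4 for the discordant hotspots cut on B6. Hotspots of the B6 allele in the same mouse leaned the other way. Of 2541 with both fractions, 655 (25.8%) were bound on both and cut on SPRT and 88 (3.46%) bound on both and cut on B6. Of 3722 hotspots with no allele assigned, 454 (12.2%) were bound on both and cut on B6 and 650 (17.5%) bound on both and cut on SPRT. Another 50 autosomal hotspots of B6/SPRT are marked KO. Their median H3K4me3 fraction was 65.4% and DMC1 fraction 94.4% from B6, each over those with that fraction listed. Of the 12 with both fractions, 5 were bound on both and cut on B6.

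A DMC1 fraction was not listed for 1791 of 9247 SPRT-allele autosomal hotspots of B6/SPRT, and 1383 of those had H3K4me3 on both, so the class could not be read there. Where these had both fractions in another mouse, 7 of 264 (2.65%) were discordant in Hum/SPRT and 11 of 135 (8.15%) in CAST/SPRT. In the STUS crosses, which lack the SPRT allele, 5 of the 599 discordant positions had a hotspot center within 500 bp in STUS/B6 (0.835%) and 4 in STUS/Hum (0.668%). Over all 7456 hotspots these shares were 0.523% and 0.456%. They were 0.545% and 0.441% for hotspots bound and cut on B6, and 0.511% and 0.558% for those bound and cut on both.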
